A study of Mus musculus with 6 samples.

Results

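The DNA replication and G1/S genes described here are 40 genes given by name, which span the MCM2-7 helicase, origin licensing, helicase activation, the replicative polymerases, the sliding clamp, Okazaki fragment maturation, nucleotide supply, G1/S control and chromatin assembly. All 40 of 40 were matched by symbol among 53379 annotated mouse genes, and all 40 were among the 14537 genes that passed the filter on low counts. Pancreatic tumour organoids titled as having lost the wild-type Trp53 allele had lower levels of 38 of them than organoids with that allele in line 23 and in line 34 (48.6% and 47.6% of all genes were lower there). In line 6 it was 23 of the 40, near the 50.7% of all genes. Chaf1b and Gmnn passed the test over all genes, as lower, and neither passed once the organoid line entered as a block.

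DNA replication is prepared in G1, when the origin recognition complex, Cdc6 and Cdt1 load the MCM2-7 helicase onto origins. In S phase Cdc45 and the GINS complex activate the helicase, and polymerases alpha, delta and epsilon copy the strands together with the PCNA clamp. Many genes of this machinery are transcribed around the G1/S boundary by E2F factors, which the retinoblastoma protein holds back until cyclin-dependent kinases phosphorylate it, and p53 acts on this step through the kinase inhibitor p21.

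The organoids were epithelial cultures of primary cells from tumours of KPC mice, grown in a matrigel dome in complete mouse organoid medium. Both groups carry Pdx1-Cre on a C57/Bl6 background, so Cre from the Pdx1 promoter activates mutant Trp53 in cells of the pancreatic lineage. The heterozygous group has the genotype Trp53LSLR172H/+, with a wild-type allele beside R172H. The LOH group is titled R172H/LOH (loss of heterozygosity) and its genotype is given as Trp53LSLR172H/-. Lines 6, 23 and 34 each gave 1 library per group, so n = 3 in each. The description field of every LOH library has a suffix absent from the heterozygous libraries, and no label explains it, so whatever it stands for cannot be told apart from the genotype. No label gives the age of the mice, the passage of the cultures, or whether the lines came from separate mice. The p-values measure the spread between these libraries.

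Each library held 13680458 to 27917277 expected counts, and the rarest member in any library had 127. The protein-coding share of counts was 67.9% to 73.3% in the heterozygous and 61.4% to 67.2% in the LOH libraries. Values below are CPM, counts scaled to the TMM-adjusted library size, unless TPM is named, and ratios are log2 LOH over heterozygous CPM within a line. All 12 epithelial markers were present in every group, with summed levels of 4217 to 4880 TPM in heterozygous and 3343 to 6351 TPM in LOH libraries. The 10 fibroblast markers summed to at most 0.36 TPM in any library, with Col3a1 and Thy1 at 0. The 10 leukocyte markers summed to 1.76 to 2.25 TPM against 2.67 to 10.8 TPM in LOH, where Cd68 alone reached 1 TPM and Cd3g, Adgre1 and Lyz2 were among those at 0. Endothelial, acinar and endocrine markers summed to at most 0.88, 2.46 and 0.11 TPM. The part of the leukocyte markers or of the protein-coding share in the results was not tested. Trp53 itself had 76.3 to 86.5 CPM in heterozygous and 47.4 to 73.5 CPM in LOH libraries, with a log2 fold change of -0.47 (adjusted p 0.227, edgeR), and gene counts do not tell the mutant transcript from the wild-type one.

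Promoters of 33 of the 40 members were found in the RefSeq table of windows from 250 bases before to 50 bases after a transcription start (build GRCm38.p6), with 40 windows among them. Ccne2, Gins1, Gins2, Gmnn, Mcm4, Pole and Rfc2 had no entry. An E2F-type word (TTTCCCGC, TTTGGCGC, TTTCGCGC or TTTGCCGC, on either strand, overlaps allowed) occurred in 14 of the 40 windows (35%), against 2.26% of all 32851 windows in the table. The CCAAT word occurred in 55% of the member windows against 37.4% of all. A CHR-type word (TTTGAA or TTCGAA) occurred in 17.5% against 19.2%. The 4 windows below belong to the members with an E2F-type word and the smallest p-values in the comparison, and are shown because they hold that word in its setting. Each is written 5′ to 3′ on the strand of its gene, with E2F-type words in capitals: Uhrf1 at chr17:56304063-56304362 (plus strand), Mcm6 at chr1:128359656-128359955 (minus), Mcm7 at chr5:138171834-138172133 (minus) and Lig1 at chr7:13278576-13278875 (plus).
Uhrf1: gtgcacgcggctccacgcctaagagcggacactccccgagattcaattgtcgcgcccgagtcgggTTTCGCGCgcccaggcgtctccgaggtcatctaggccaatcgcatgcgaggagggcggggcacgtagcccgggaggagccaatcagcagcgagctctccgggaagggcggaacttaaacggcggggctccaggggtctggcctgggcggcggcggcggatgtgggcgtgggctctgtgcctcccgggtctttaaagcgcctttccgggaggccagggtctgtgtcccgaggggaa
Mcm6: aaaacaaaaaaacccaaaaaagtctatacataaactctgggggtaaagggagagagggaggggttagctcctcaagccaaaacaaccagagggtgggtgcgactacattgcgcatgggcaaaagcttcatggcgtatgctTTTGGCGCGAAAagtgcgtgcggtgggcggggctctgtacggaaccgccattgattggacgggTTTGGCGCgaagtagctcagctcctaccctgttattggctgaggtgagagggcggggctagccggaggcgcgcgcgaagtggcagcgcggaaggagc
Mcm7: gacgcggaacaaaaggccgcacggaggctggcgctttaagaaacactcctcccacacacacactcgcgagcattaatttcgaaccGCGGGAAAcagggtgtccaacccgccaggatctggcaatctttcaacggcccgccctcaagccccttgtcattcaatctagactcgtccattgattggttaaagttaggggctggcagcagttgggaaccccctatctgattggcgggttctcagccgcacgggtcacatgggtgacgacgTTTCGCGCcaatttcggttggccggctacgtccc
Lig1: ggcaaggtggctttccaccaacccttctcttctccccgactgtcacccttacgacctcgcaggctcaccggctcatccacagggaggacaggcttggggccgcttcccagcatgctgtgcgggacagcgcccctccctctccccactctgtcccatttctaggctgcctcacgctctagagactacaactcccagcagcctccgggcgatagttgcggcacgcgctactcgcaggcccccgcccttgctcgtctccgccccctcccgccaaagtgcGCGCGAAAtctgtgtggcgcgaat
In the Mcm6 window the first capital run holds 2 overlapping words, one on each strand. A match is a run of letters and not a measured binding site. The 14 members with such a word had fold changes with a median of -0.54, the 19 with a window but no such word one of -0.66, and the 7 without an entry one of -0.57.

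The main comparison was between the 3 LOH and the 3 heterozygous libraries. Of the 40 members, 37 had a log2 fold change below 0, and the median was -0.59, against 0.06 over all 14537 genes tested. In the quasi-likelihood test of edgeR with Benjamini-Hochberg adjustment over all genes, 2 members fell and 0 rose (1.66% of all genes tested were called lower), and 18 members were lower at an unadjusted p under 0.05, against 10.6% of all genes. All 3 LOH values lay below all 3 heterozygous values for 21 members, a pattern that 16.5% of all genes showed. No member had all LOH values above, where 2382 of the 14537 genes tested did. With the organoid line as a block, edgeR called 0 members, with 16 lower at an unadjusted p under 0.05. The same fit called 0.248% of all genes lower after adjustment and 8.54% at an unadjusted p. On the TPM scale the median of all genes was itself shifted to -0.35, and the members' median was -1.01, which is -0.66 relative to that shift. There limma called 280 genes higher and 1631 lower, against 516 and 241 in edgeR on counts. In bulk RNA, fewer cells in S phase and less of these transcripts per cell cannot be told apart.

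Among LOH libraries the count of called members turned on line 6. Without the LOH library of line 6 the members' median was -1.02 and 29 of the 40 passed as lower, where the edgeR test called 8.68% of all genes lower. Without both libraries of line 6 the median was -1.05 and 17 passed, against 3.93% of all genes called lower. Without the LOH library of line 23 the median was -0.45 and 0 members passed, where 137 of 14950 genes were called lower. Without that of line 34 the median was -0.48 and 2 passed, where 237 of 15092 genes were called lower. No member passed when any 1 heterozygous library was left out, where edgeR called 0 genes of any kind. In those fits 12 to 14 members were lower at an unadjusted p under 0.05. Over all genes, 2272 to 2966 of 15113 to 15319 had such a p in either direction. DESeq2 on all libraries called 12 members, all lower, against 844 (3.12%) of 27027 genes called lower. That larger set holds every gene with a fold change, with no filter on low counts beforehand. It includes any genes that DESeq2 left without an adjusted p, so its share is not on the footing of the others.

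**Figure D1:**
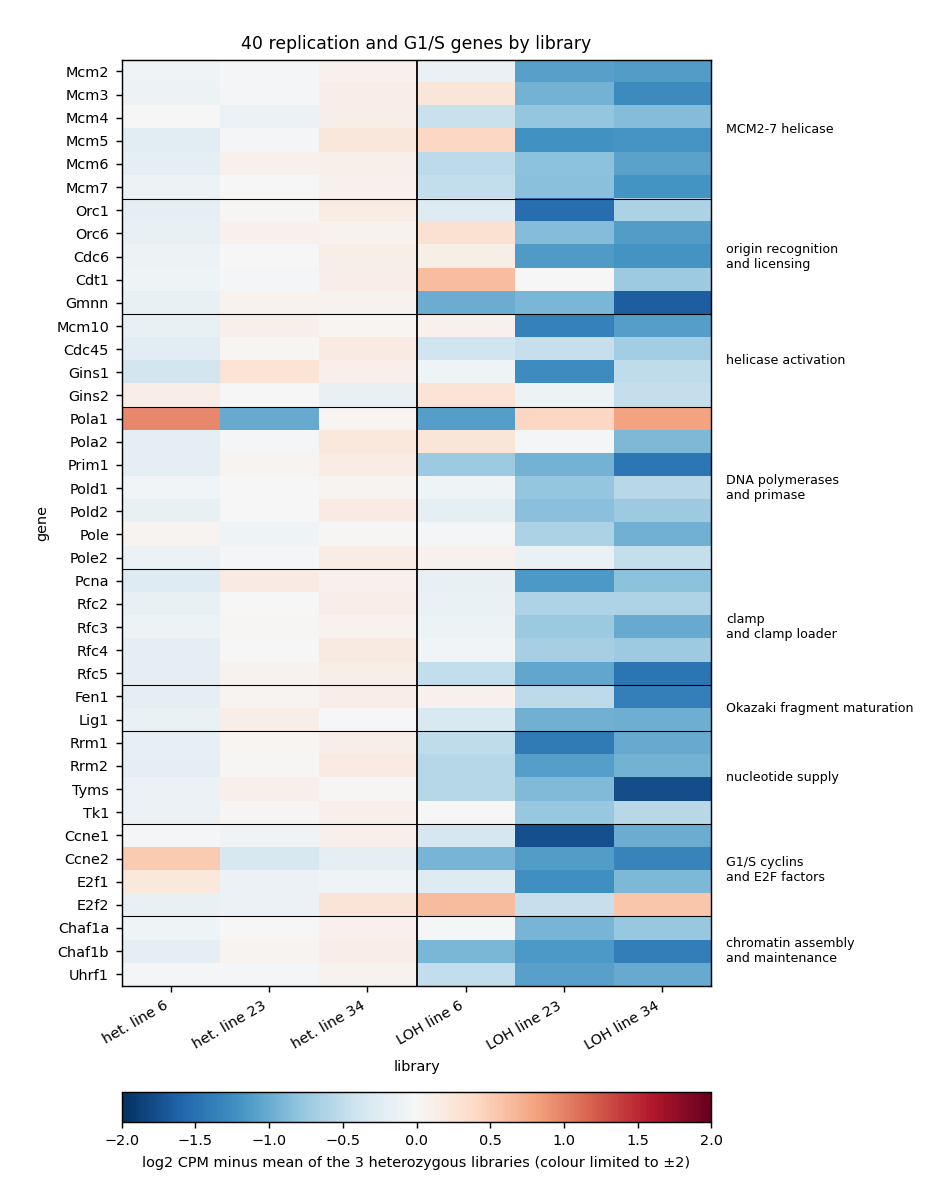
Colour gives the log2 CPM of each member (rows, ordered by role) in each of the 6 libraries (columns), minus the mean of the 3 heterozygous libraries. The LOH libraries of lines 23 and 34 are blue for nearly all members, with 36 and 38 of 40 below the heterozygous range, while in LOH line 6 there were 22 below, 11 within and 7 above it.

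The 6 subunits of the MCM2-7 ring, the motor of the replicative helicase, all had fold changes below 0, with a median of -0.70 and line medians of -0.21, -0.90 and -1.24 in lines 6, 23 and 34. None passed with all libraries, 4 were lower at an unadjusted p under 0.05, and 6 of 6 passed without LOH line 6. Mcm6 had 261, 312 and 316 CPM in heterozygous lines 6, 23 and 34 and 205, 167 and 141 CPM in the LOH libraries. Mcm7 had 222, 239 and 252 CPM against 169, 133 and 104 CPM. Mcm4 had 154, 143 and 167 CPM against 113, 90.2 and 84.5 CPM. In all 3 subunits the lowest heterozygous library was above the highest LOH library, and LOH line 6 was the highest of the LOH libraries. The log2 fold changes were -0.79 (SE 0.20) for Mcm6, -0.81 (SE 0.22) for Mcm7 and -0.69 (SE 0.19) for Mcm4, with edgeR adjusted p-values of 0.0695, 0.0773 and 0.0782. Mcm2 had 133, 138 and 149 CPM against 127, 65.9 and 64.4 CPM. Its LOH line 6 value was just under the heterozygous ones and the other two LOH values were far below, which gave a log2 fold change of -0.71 (SE 0.29; adjusted p 0.189, edgeR). Mcm3 and Mcm5 were higher in LOH line 6 than in any heterozygous library, at 223 and 218 CPM, and their log2 fold changes were -0.50 and -0.46. The annotated interval of Mcm7 contains the miRNA genes Mir25, Mir93 and Mir106b and overlaps Ap4m1 and Cops6 on the opposite strand.

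The subunits are used in equal numbers in the ring, so their relative TPM levels were compared within each library. Mcm7 and Mcm6 took the largest shares of the summed MCM2-7 TPM in the heterozygous libraries, at 26% to 27.3% and 22.9% to 24.7%. In LOH line 6 the shares of Mcm5 and Mcm3 were 22.2% and 19.9%, against 14.1% to 15.9% and 14.7% to 15.5% in the heterozygous libraries. In LOH lines 23 and 34 they were 11.8% and 13.8% for Mcm5 and 14.3% and 13.2% for Mcm3. Of the LOH libraries, line 6 alone lay above the heterozygous shares of both.

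Origin recognition and licensing genes had a median of -0.61 over 5 members. Gmnn encodes geminin, which binds Cdt1 and blocks the loading of further helicases after S phase has begun. Gmnn (ENSMUSG00000006715.11, chromosome 13, 24751845 to 24761923, minus strand, GRCm38) had 34, 39.5 and 39.5 CPM in heterozygous lines 6, 23 and 34. The LOH libraries had 18.8, 20 and 12 CPM. Every LOH library was well below every heterozygous one, with line 34 lowest. Gmnn fell from 37.7 ± 3.17 to 16.9 ± 4.31 CPM (SD over 3 libraries each), with a log2 fold change of -1.15 (SE 0.24; adjusted p 0.0428, edgeR). It did not pass once the line entered as a block (adjusted p 0.114, edgeR), nor when any 1 heterozygous library, the LOH library of line 23 or any whole line was left out, and its adjusted p ran from 0.00134 to 0.241 over all alternatives. Genes of its chromosome with at least 5 CPM had median ratios of -0.51, -0.14 and -0.78 in lines 6, 23 and 34, beside -0.85, -0.98 and -1.71 for Gmnn, and the part of the chromosome in the result was not tested.

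Cdt1, the loading factor that geminin inhibits, had 51.4, 53 and 60.2 CPM in heterozygous lines 6, 23 and 34 and 84, 54.4 and 33.2 CPM in their LOH counterparts. The groups overlapped, with LOH line 6 highest and LOH line 34 lowest of all 6. Its log2 fold change was 0.06 (SE 0.33; adjusted p 0.926, edgeR) and -0.03 with the block. On the log2(TPM + 1) scale it was -0.40, where the median of all genes was -0.35. The ratio of Cdt1 to Gmnn CPM was 1.51, 1.34 and 1.52 in heterozygous lines 6, 23 and 34, and it reached 4.47, 2.72 and 2.77 in the libraries with LOH. That ratio was higher in every LOH library than in any heterozygous one, where Gmnn alone was already apart. No share over other pairs of genes was computed. Its components are a member that passed and a member that did not. Cdt1 lies on chromosome 8, with median ratios of 0.40, 0.01 and -0.05 in lines 6, 23 and 34. Gmnn lies on chromosome 13, with -0.51, -0.14 and -0.78. The part of these chromosomes in the ratio of Cdt1 to Gmnn was not tested. Orc1 and Orc6 encode subunits of the origin recognition complex and had log2 fold changes of -0.72 and -0.42. Cdc6, an ATPase that joins the complex before the helicase is loaded, had one of -0.61. Orc6 and Cdc6 were at or above the top of the heterozygous range in LOH line 6 and far below it in LOH lines 23 and 34. Orc1 lies on chromosome 4, with median ratios of -0.35, -0.48 and -0.27 in lines 6, 23 and 34. Orc1 itself had -0.10, -1.53 and -0.77, and the part of that chromosome was not tested.

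Genes that activate the loaded helicase had a median of -0.54 over 4 members, of which 0 passed and 1 was lower at an unadjusted p under 0.05. The log2 fold changes were -0.65 for Mcm10, which helps fire the assembled helicase, and -0.52 for Cdc45, a subunit of the active helicase. They were -0.57 for Gins1 and -0.08 for Gins2, which belong to the GINS complex. Mcm10 had 58.4 to 69.9 CPM in the heterozygous libraries, 69.1 CPM in LOH line 6 and 25.4 and 30.4 CPM in LOH lines 23 and 34. Gins2 had the fold change nearest 0 of the 4, with 30.5 to 37.3 CPM against 24.2 to 40.7 CPM, and its fold change turned to 0.09 without LOH line 34.

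The 7 polymerase and primase genes had a median of -0.44. Prim1 encodes the catalytic subunit of primase, which makes the RNA primers of each new strand. It had 45.5, 54 and 57.4 CPM in heterozygous lines 6, 23 and 34 and 31.6, 27 and 19.2 CPM in the LOH libraries. Each LOH library lay below each heterozygous one, in the order 6, 23, 34 from high to low. The log2 fold change of -1.01 (SE 0.24) just missed the threshold in edgeR (adjusted p 0.0562), and was -1.22 without LOH line 6 (adjusted p 0.0242, edgeR), in a range from 0.00559 to 0.319 over the alternatives. Of the subunits of polymerase delta, which mainly copies the lagging strand, Pold1 had a log2 fold change of -0.44 and Pold2 one of -0.56. For polymerase epsilon, which mainly copies the leading strand, Pole had -0.50 and Pole2 -0.16. Pola2, the regulatory subunit of polymerase alpha, had -0.17, with the LOH libraries at 53.4, 43.7 and 24.2 CPM around a heterozygous range of 39.4 to 52.2 CPM.

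Pola1, the catalytic subunit of polymerase alpha, stood apart from the other members. Pola1 (ENSMUSG00000006678.6, chromosome X, 93304767 to 93632155, minus strand) had 44.8, 11.5 and 23.7 CPM in heterozygous lines 6, 23 and 34 and 10.7, 30.8 and 40.1 CPM in their LOH counterparts. The heterozygous libraries differed among themselves as much as the LOH libraries did, and the line ratios were -2.06, 1.42 and 0.75. Its log2 fold change was 0.03 (SE 0.60; adjusted p 0.986, edgeR). On the log2(TPM + 1) scale it was -0.42, where the median of all genes was -0.35. Its partners in the polymerase alpha and primase complex, Pola2 and Prim1, did not follow this order. All genes were split into 5 equal bins by the GC content of their leading transcript. The bin of lowest GC (29.8% to 44.4%), which holds Pola1 at 41.5%, had median ratios of -0.60, 0.60 and 0.49 in the 3 lines, while the medians of the other bins ran from -0.15 to 0.17. A finer grouping made 10 bins of GC content, each split into 3 bins of transcript length. Genes of the same bin are called genes of like GC content and length. With their median removed within each line, Pola1 had ratios of -0.69, -0.30 and -0.48. That alternative was chosen after seeing the data. Under it the members' medians were -0.14, -0.81 and -1.02 in lines 6, 23 and 34, against -0.06, -0.92 and -1.08 before.

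**Figure D2:**
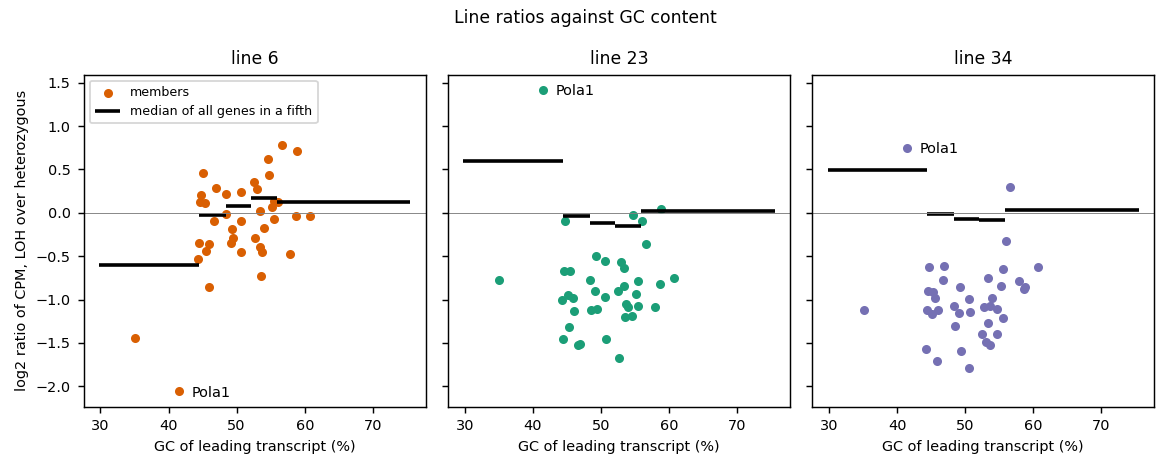
The log2 ratio of LOH over heterozygous CPM (vertical) is plotted against the GC content of the leading transcript in percent (horizontal) for the 40 members, 1 panel per line, with the median of all genes in each of 5 equal bins of GC content as a bar. The bin of lowest GC lies at -0.60, 0.60 and 0.49 and Pola1 at -2.06, 1.42 and 0.75, while 38 of the 40 members lie below 0 in line 23 and 38 in line 34.

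The sliding clamp and its loader had a median of -0.58 over 5 members, of which 0 passed and 5 of 5 passed without LOH line 6. Pcna, the clamp that tethers polymerases to DNA, had 220, 294 and 279 CPM in heterozygous lines 6, 23 and 34 and 237, 118 and 149 CPM in the LOH libraries. LOH line 6 lay within the heterozygous range and the other LOH libraries lay below it. The log2 fold change was -0.66 (SE 0.29; adjusted p 0.208, edgeR). Counts of Pcna are uncertain to the extent that reads could be shared with its pseudogenes Pcna-ps1 and Pcna-ps2. The clamp loader subunits Rfc2, Rfc3, Rfc4 and Rfc5 had log2 fold changes of -0.44, -0.58, -0.45 and -0.95. Rfc5 had the fold change farthest from 0 of these, with 74, 50.7 and 37.7 CPM in LOH lines 6, 23 and 34 against a heterozygous range of 90.8 to 113 CPM.

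Of the genes that process Okazaki fragments, Fen1, the flap endonuclease, had a log2 fold change of -0.49, and Lig1, the ligase that seals the nicks, had one of -0.72. Fen1 in LOH line 6 was within the heterozygous range of 60.7 to 75.4 CPM, at 73.2, and LOH lines 23 and 34 had 48 and 26.8 CPM. Lig1 had 82.9 to 99.6 CPM in heterozygous and 46 to 73.2 CPM in LOH libraries, without overlap.

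The 4 genes of nucleotide supply had the lowest median of the role groups, -0.90, with 3 of 4 lower at an unadjusted p under 0.05 and 4 of 4 passing without LOH line 6. Ribonucleotide reductase makes deoxyribonucleotides from a large subunit, Rrm1, and an S phase subunit, Rrm2. Rrm1 had 246, 282 and 298 CPM in heterozygous lines 6, 23 and 34 and 192, 103 and 137 CPM in the LOH libraries. Rrm2 had 164, 191 and 211 CPM against 127, 87 and 97 CPM. In both subunits the groups were apart, with LOH line 6 the nearest to the heterozygous libraries and LOH line 23 the lowest. The log2 fold changes were -0.93 (SE 0.26; adjusted p 0.0808, edgeR) for Rrm1 and -0.86 (SE 0.21; adjusted p 0.0633, edgeR) for Rrm2. Tyms, thymidylate synthase, had a log2 fold change of -0.99, reaching 21.5 CPM in LOH line 34 against 67.5 to 78.3 CPM in the heterozygous libraries, and reads could be shared with its pseudogene Tyms-ps. Tk1, the thymidine kinase of the salvage pathway, had -0.40.

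Of the G1/S cyclins and E2F factors, 3 of 4 were lower at an unadjusted p under 0.05 and 0 passed. Ccne1 and Ccne2 encode the E cyclins, which activate Cdk2 at the G1/S boundary. Ccne1 had 23.4, 22.9 and 25.8 CPM in heterozygous lines 6, 23 and 34 and 19, 7.1 and 12.1 CPM in the LOH libraries. Ccne2 had 21.5, 11.9 and 13 CPM against 7.86, 6.91 and 5.91 CPM. The groups were apart for both, with heterozygous line 6 well above the others for Ccne2 and LOH line 23 lowest for Ccne1. The log2 fold change was -0.92 (SE 0.35; adjusted p 0.162, edgeR) for Ccne1 and -1.16 (SE 0.30; adjusted p 0.0704, edgeR) for Ccne2. E2f1, an activating E2F factor, had 14.3, 11.4 and 11.6 CPM in heterozygous lines 6, 23 and 34 and 10.3, 5.29 and 6.66 CPM in their LOH counterparts. The LOH values were again all lower, with line 6 closest, and the log2 fold change was -0.75 (SE 0.30; adjusted p 0.182, edgeR). E2f2, a second activating factor, had 15.1 to 20 CPM in heterozygous libraries and 26, 12.1 and 24.6 CPM in LOH lines 6, 23 and 34. Its log2 fold change of 0.31 (adjusted p 0.579, edgeR) was -0.14 on the log2(TPM + 1) scale, which is above the shift of -0.35 of all genes there. Ccne2 and E2f2 lie on chromosome 4, whose genes with at least 5 CPM had median ratios of -0.35, -0.48 and -0.27 in lines 6, 23 and 34. In these lines Ccne2 had -1.44, -0.77 and -1.12 and E2f2 had 0.78, -0.36 and 0.30. The part of the chromosome was not tested.

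Chaf1b had the smallest p-value of the members. It encodes the middle subunit of chromatin assembly factor 1, which deposits new histones H3 and H4 behind the fork where PCNA recruits it. Chaf1b (ENSMUSG00000022945.11, chromosome 16, 93883901 to 93906115, plus strand) had 49.9, 58.8 and 62.3 CPM in heterozygous lines 6, 23 and 34 and 30.2, 25.6 and 21.7 CPM in the LOH libraries. All LOH values were below all heterozygous values by a wide gap, with LOH line 6 the highest of them. Chaf1b fell from 57 ± 6.37 to 25.8 ± 4.23 CPM (SD over 3 libraries each), with a log2 fold change of -1.14 (SE 0.20; adjusted p 0.0312, edgeR). With the block the fold change was -1.15 and the edgeR adjusted p 0.111, and it did not pass when any 1 heterozygous library, the LOH library of line 23, line 23 or line 34 was left out. Its adjusted p ran from 0.000183 to 0.241 over all alternatives. The large subunit, Chaf1a, had a log2 fold change of -0.52, and its LOH line 6 value of 65.7 CPM lay within the heterozygous range of 62.7 to 70.9 CPM. Uhrf1, which reads hemimethylated DNA and brings the maintenance methyltransferase to it, had 182, 183 and 197 CPM in heterozygous lines 6, 23 and 34. The LOH libraries had 133, 88.2 and 92.9 CPM. These groups did not overlap, and the log2 fold change was -0.84 (SE 0.21; adjusted p 0.0661, edgeR).

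**Figure D3:**
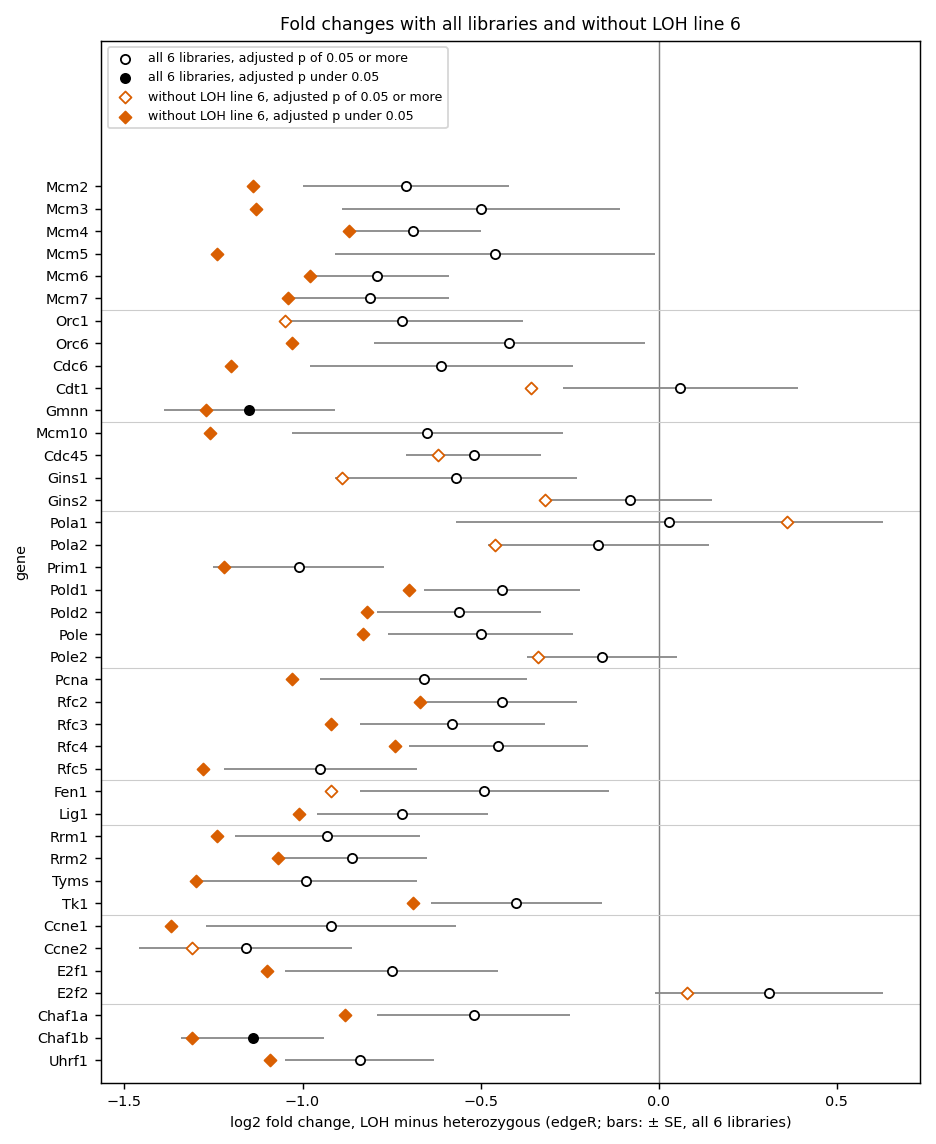
The horizontal axis gives the log2 fold change of each member (rows, by role) from edgeR, with all 6 libraries (circles, bars ± SE) and without the LOH library of line 6 (diamonds), and filled symbols have an adjusted p under 0.05. With all libraries 2 symbols are filled, and without LOH line 6 there are 29.

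The second comparison was within each organoid line, where 1 library stands on each side and no test is possible. Median ratios of the members were -0.06, -0.92 and -1.08 in lines 6, 23 and 34, against -0.01, 0.03 and 0.06 over all genes tested. On the linear scale the median LOH level was 96.2%, 52.9% and 47.2% of the heterozygous level of the same line. Of the 40 members, 38 had ratios below 0 in line 23 and 38 in line 34, against 48.6% and 47.6% of all genes, and 23 in line 6, a share near the 50.7% of all genes. Ratios of at most -0.5 were found for 5, 34 and 37 members in lines 6, 23 and 34, against 26.7%, 28.1% and 25.5% of all genes. The ratio was below 0 in all 3 lines for 22 members, against 21.6% of all genes. The heterozygous libraries lay close together for these genes, with a median coefficient of variation of 9.62% over the members, against 12% over 10075 genes of at least 5 CPM. Across the LOH libraries it was 33.7% over the members and 26.5% over those genes.

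**Figure D4:**
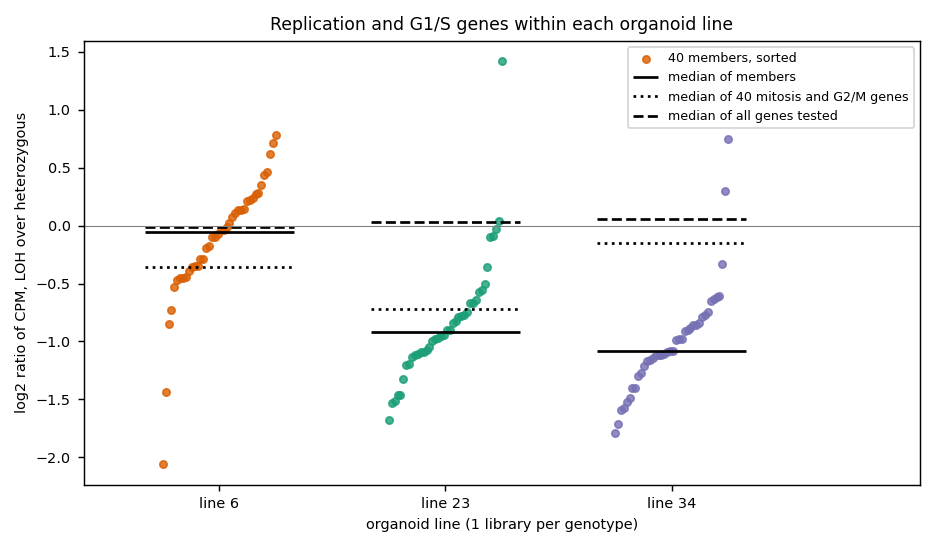
Points are the log2 ratios of the 40 members, sorted, in each organoid line (1 library per genotype), with lines for the median of the members, of 40 mitosis and G2/M genes and of all genes tested. The members centre on -0.06 in line 6 and on -0.92 and -1.08 in lines 23 and 34, while the mitosis genes centre on -0.36, -0.72 and -0.15.

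In line 6 the members parted. Gmnn, Chaf1b, Prim1, Ccne2 and Pola1 were the 5 with ratios of at most -0.5 there, at -0.85, -0.73, -0.53, -1.44 and -2.06, and they were singled out after their values were seen. At the other end, E2f2 had 0.78, Cdt1 0.71, Mcm5 0.62 and Orc6 0.46. The 4 members on chromosome 8 (Mcm5, Orc6, Cdt1 and Gins2) all had ratios above 0 in line 6, where genes of that chromosome with at least 5 CPM had a median ratio of 0.40, against 0.01 and -0.05 in lines 23 and 34. Without these 4 the members' median fold change was -0.65 and the median ratio in line 6 was -0.10. Of the 5 lowest in line 6, Prim1, Ccne2 and Pola1 lie in the bin of lowest GC, whose median ratio there was -0.60. With genes of like GC content and length removed, Gmnn, Chaf1b, Prim1, Ccne2 and Pola1 had -0.88, -0.93, -0.27, -0.49 and -0.69. Prim1 and Ccne2 then lay above -0.5, and others, such as E2f1 at -0.64, below it. The part of the chromosome or of GC content in these ratios was not tested.

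Per length, the members covered a wide range of levels. Pcna was the most abundant with 227 ± 9.01 TPM in heterozygous and 111 ± 48.1 TPM in LOH libraries (SD, n = 3 each), and E2f2 the least in heterozygous libraries with 4.28 ± 0.437 TPM. The summed TPM of the 40 members was 2013, 1853 and 2017 in heterozygous lines 6, 23 and 34 and 1388, 785 and 685 in the LOH libraries. These sums include the shift of all genes on the TPM scale. Besides Mcm7, the members given in all 6 libraries that overlap another annotated gene are Cdt1 (Gm20388), Rrm1 (Gm45399), Ccne2 (Ints8, on the opposite strand) and Pola1 (Gm23557, and Gm14780 on the opposite strand), so part of their counts could come from it. Rfc5 (Wsb2) and Fen1 (Gm10143 and Tmem258), given by LOH library, also overlap genes on the opposite strand.

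The leading transcript of a member, the one with the largest mean share of its TPM over the libraries, was examined in the 38 members with at least 2 transcripts above 0 TPM. Its share did not overlap between the groups in 8 of them, namely Mcm3, Mcm5, Cdc6, Gmnn, Rfc5, Fen1, Rrm2 and Uhrf1, against 12.3% of all tested genes with at least 2 such transcripts. For Rfc5 it took 62.5%, 62.9% and 69.4% of the TPM in heterozygous lines 6, 23 and 34 and 72.6%, 78.2% and 84.8% in the LOH libraries. For Uhrf1 it took 52.4%, 65.2% and 60% against 36.9%, 50.6% and 48.9%, and for Mcm5 71.3%, 68.9% and 68.5% against 74.5%, 74.2% and 74.7%. These groups did not overlap, but no test was run on shares that RSEM estimates by dividing ambiguous reads. For Lig1 it took 37.5%, 39.8% and 44% against 0%, 68.4% and 62.5%, with LOH line 6 at 0.

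Other genes of replication and its checkpoint, a list of 52 that the members do not include, had a median fold change of -0.46 (log2), with line medians of -0.22, -0.73 and -0.82. All 52 were tested, 4 fell and 1 rose, against 1.66% of all genes called lower and 3.55% called higher. Clspn, the claspin adaptor of the replication checkpoint, fell by 1.15 on the log2 scale (SE 0.18; adjusted p 0.0246, edgeR). Nasp, a histone chaperone, fell by 1.07 (adjusted p 0.0313, edgeR), and Usp1, a deubiquitinase that acts on PCNA, fell by 1.01 (adjusted p 0.039, edgeR). Dna2, a nuclease and helicase that trims long flaps, was the remaining one, named after its values were seen, and fell by 1.78 (adjusted p 0.0482, edgeR). Clspn, Nasp and Usp1 lie on chromosome 4. Its genes with at least 5 CPM had median ratios of -0.35, -0.48 and -0.27 in lines 6, 23 and 34. The part of the chromosome in these falls was not tested. Pold4, the smallest subunit of polymerase delta, rose by 1.74 (SE 0.38; adjusted p 0.0479, edgeR), from 8.37, 14.2 and 9.38 to 19.3, 42.3 and 44.8 CPM, where Pold1 and Pold2 had log2 fold changes of -0.44 and -0.56. Top2b and Rrm2b, the next 2 higher genes of the list, did not pass, with log2 fold changes of 1.22 and 0.49. Top2b had ratios of -2.26, 2.82 and 2.61 in lines 6, 23 and 34, so its mean hides opposite signs. With the block 0 genes of this list passed, with 15 lower at an unadjusted p under 0.05, beside 8.54% of all genes.

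Genes that control entry into S phase, a list of 34, had a median of -0.15, with 2 called lower and 0 higher, beside 1.66% and 3.55% of all genes. Cdk4, the G1 kinase that acts with D cyclins, fell by 0.98 on the log2 scale (SE 0.17; adjusted p 0.0306, edgeR), and E2f7, a repressor of E2F targets, fell by 1.14 (SE 0.22; adjusted p 0.0358, edgeR). Fbxo5, an inhibitor of the anaphase-promoting complex, had a log2 fold change of -0.93 (adjusted p 0.0516, edgeR). Cdk4, E2f7 and Fbxo5 lie on chromosome 10. Its genes with at least 5 CPM had median ratios of -0.48, -0.16 and 0.05 in lines 6, 23 and 34, and the part of the chromosome was not tested. Ccnd1, cyclin D1, had 896, 900 and 954 CPM in heterozygous lines 6, 23 and 34 and 377, 273 and 625 CPM in the LOH libraries. These values did not overlap, but the fold change of -1.11 (log2) did not pass (adjusted p 0.0818, edgeR). Among inhibitors of the cell cycle, Cdkn1a, which encodes p21, had a log2 fold change of -0.61 with ratios of -1.77, -0.20 and -0.20 in lines 6, 23 and 34 (adjusted p 0.339, edgeR). Cdkn2a had 0.67, Cdkn1b 1.23 and Rbl2 0.56, and none of these passed, with edgeR adjusted p-values of 0.0787, 0.197 and 0.118. For Cdkn1b LOH line 34 stood out with 179 CPM, against 45.6 and 53 CPM in LOH lines 6 and 23. With the block 0 of the 34 passed, with 5 lower at an unadjusted p under 0.05, beside 8.54% of all genes.

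Genes of mitosis and G2/M, a list of 40, had a median of -0.32 and line medians of -0.36, -0.72 and -0.15, against -0.06, -0.92 and -1.08 for the members. Mad2l1, a spindle checkpoint protein, was the 1 of the 40 that fell, a share near the 1.66% of all genes, by 0.84 on the log2 scale (SE 0.16; adjusted p 0.0369, edgeR). Spc25 of the kinetochore and Cdk1, the mitotic kinase, had log2 fold changes of -0.91 and -0.97 and did not pass (edgeR adjusted p 0.0695 and 0.0761). Cdc25b had 0.52, Nusap1 0.30 and Cenpf 1.67, with edgeR adjusted p-values of 0.205, 0.435 and 0.36. Cenpf lay on both sides of 0, with ratios of -2.80, 3.85 and 3.29 in lines 6, 23 and 34. Mki67, the proliferation marker, had 395, 64.8 and 131 CPM in heterozygous lines 6, 23 and 34 and 64.6, 403 and 564 CPM in the LOH libraries. Like Pola1 it was lower with LOH in line 6 and higher in lines 23 and 34, with ratios of -2.61, 2.64 and 2.10. Its leading transcript is 10061 bases long with 46.6% GC, and with genes of like GC content and length removed its ratios were -2.62, 2.43 and 2.03. The leading transcripts of Cenpf and Top2b have 11130 and 10335 bases. With only 3 bins of length such transcripts were matched coarsely, and the part of length in these ratios was not tested. With the block 0 genes of the mitosis list passed, with 7 lower at an unadjusted p under 0.05, beside 8.54% of all genes.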

How the data were processed

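Total RNA from 6 organoid cultures was made into libraries with a stranded kit, per the labels' protocols. The authors deposited expected counts per gene and transcript, which are estimated counts that need not be whole, and TPM, transcript abundance scaled for length and depth, in tables whose columns are those of RSEM, per the file headers. In the deposited normalized tables the values are a signal, namely the truncated expected count divided by the authors by 1 factor per library, as the values show. They served for the names of 23525 genes and for the set of protein-coding genes. The submitters' processing notes list FastQC 0.11.5, STAR 2.5.2b, RSEM 1.3.0 and DESeq2 1.44.0 and the build GRCm38.p5. The strand setting is not given in the sources used here. The table names give GENCODE release 16, and positions came from release 21 (GRCm38), which held 53274 of 53379 gene identifiers. An annotated gene overlaps 19 of the 40 members, though not Chaf1b or Gmnn.

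The 40 members and all lists were chosen with earlier results of these data known. Expected counts were rounded, genes kept by filterByExpr (14537), scaled by TMM and tested with the two-sided quasi-likelihood test of edgeR 4.0.16 (R 4.3.3) with Benjamini-Hochberg adjustment over all genes tested and a threshold of 0.05. Log2 CPM used a prior count of 2. A median over members is a description with no test. Values of all 6 libraries are given for the 10 members with the smallest p-values and for Mcm2, Cdt1, Pcna, Ccne1 and E2f1, and for Pola1, added after its values were seen. For some other members, outside that rule, LOH values are given beside the heterozygous range. Of the lists of other replication genes, G1/S control and mitosis, the 3 lower and the 3 higher genes with the smallest p-values are named, with Cdkn1a, Ccnd1 and Mki67. The fits were tested on simulated counts. A further allele that both groups share and 1 marker gene are not reported here.

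The titles give libraries of the same number to 1 organoid line, which pairs the samples. Their deviations from the group mean had correlations across genes (not independent replicates) of -0.3, 0.01 and 0.29 in lines 6, 23 and 34, against -0.39 to 0.3 between libraries of different lines. No label states a paired model, so the line as a block was an alternative. Other alternatives were scaling by RLE or by the upper quartile, a minimum of 10 counts in each library or no filter, protein-coding genes alone, each library and line left out, DESeq2 1.42.0, and limma 3.58.1 on log2(TPM + 1) and log2(TPM + 0.1). Python 3.11.15 with pandas 2.3.3, numpy 2.4.6 and matplotlib 3.10.9 served for tables and figures.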

Additional observations from a re-analysis of the deposited data

Results flagged for a closer look

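These members are given because the 3 organoid lines lay on both sides of 0 by at least 0.25 on the log2 scale. Each line has 1 library per genotype, so none of these differences between lines was tested. From the lowest to the highest line, the ratio moved by 3.47 for Pola1, 2.01 for Mcm5, 1.79 for Gins1, 1.76 for Fen1 and 1.75 for Mcm3. The same distance was 1.63 for Orc6, 1.56 for Cdt1, 1.55 for Pola2 and 1.14 for E2f2. In Mcm3, Mcm5, Orc6, Gins1, Pola2, Fen1 and Cdt1 line 6 had the highest ratio, at 0.35, 0.62, 0.46, 0.28, 0.44, 0.27 and 0.71 in that order, and line 34 or line 23 the lowest. Pola1 was the exception, with line 6 the lowest at -2.06. E2f2 was below 0 in line 23 alone, at -0.36. Mcm5, Orc6 and Cdt1 lie on chromosome 8, whose genes had a median ratio of 0.40 in line 6. None of the 9 passed in edgeR with all libraries.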

How the results depend on the processing

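The members' median log2 fold change stayed below 0 under each alternative, from -1.08 to -0.45, and below that of all genes in each refit. It was -0.66 with chromosome medians and -0.64 with the medians of genes of like GC content and length removed, both chosen after seeing the data. With the line as a block, edgeR called 213 genes and 0 members, with 16 members lower at an unadjusted p under 0.05. DESeq2 called 2262 genes and 12 members. Limma called 1911 genes and 18 members on log2(TPM + 1), 1753 and 17 on log2(TPM + 0.1), and 241 and 1 without a filter. In these fits 33, 33 and 32 members were lower at an unadjusted p under 0.05. Of all genes, 4459 of 11918, 4425 of 11918 and 5452 of 27095 had such a p in either direction. The medians of all genes there were -0.35, -0.42 and -0.03. Leaving out 1 library or 1 line gave 0 to 2449 genes, 0 to 29 members and 4 to 34 members lower at an unadjusted p. Over all genes, 2097 to 5338 had an unadjusted p under 0.05 in either direction in these fits. The 4 members came without line 34, where 2097 of 14348 genes had such a p. Without line 23 there were 7 members, where 2253 of 14805 genes did.

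Signs turned for 6 members, none of which passed. Cdt1 was -0.03 with the block, -0.40 on log2(TPM + 1) with and without a filter, -0.42 on log2(TPM + 0.1), -0.10 with GC and length removed and -0.40 to 0.40 with samples left out. E2f2 was -0.14 on log2(TPM + 1) with and without a filter and -0.19 on log2(TPM + 0.1). Pola1 was -0.02 with no filter on counts, -0.42 on log2(TPM + 1) with and without a filter, -0.49 on log2(TPM + 0.1), -0.49 with GC and length removed and -0.45 to 0.97 with samples left out. With samples left out Gins2 ran from -0.32 to 0.09, Pola2 from -0.54 to 0.21 and Pole2 from -0.38 to 0.06. The median of all genes was itself -0.35 on log2(TPM + 1), -0.42 on log2(TPM + 0.1) and -0.03 on log2(TPM + 1) without a filter. The cause of the turns was not tested. Over the 40 members and the alternatives that give an adjusted p, 634 values kept their direction and side of the threshold, 16 values of 2 members lost a call and 85 of 29 members gained one. Each member had at least 127 counts in each library, and the precision rests on 3 libraries per group.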

Other observations

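Histone genes, which supply new nucleosomes during S phase, were read by symbol from all tested genes after the other results had been seen. Their median log2 fold change was -0.50 over 65 tested genes, of which 53 were below 0, against 46% of all genes. In edgeR without a block 20 were lower at an unadjusted p under 0.05, against 10.6% of all genes. All LOH values lay below all heterozygous values for 22 of them, against 16.5% of all genes. Hist1h1b, a linker histone, fell by 0.98 on the log2 scale (adjusted p 0.0355, edgeR), and Hist2h2be rose by 1.66 (adjusted p 0.0208, edgeR), the 1 lower and the 1 higher call among them, shares no larger than the 1.66% and 3.55% of all genes. Their line medians were -0.22, -0.11 and -1.14 in lines 6, 23 and 34, so in line 23 they lay near 0 where the replication members had -0.92. With a block for the line 0 passed, with 5 lower at an unadjusted p under 0.05 in edgeR, beside 8.54% of all genes. Whether these libraries kept histone transcripts without poly(A) tails was not tested.

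Genes beside Pola1 on chromosome X took different courses, and those named here were picked after their values were seen. Zfx had ratios of -1.86, 1.80 and 1.63 in lines 6, 23 and 34 and Tab3 ones of -1.44, 2.16 and 1.89, with the signs of Pola1. With the medians of genes of like GC content and length removed they had -0.50, 0.09 and 0.40 for Zfx and -0.07, 0.45 and 0.66 for Tab3. Klhl15, with -1.36, 1.32 and 0.76, also had the signs of Pola1. Eif2s3x had 0.12, -0.71 and -0.61 and Pdk3 had 0.44, -0.27 and -0.07. Gk had -0.74, -0.15 and 0.54, Pcyt1b had 0.30, 0.48 and 0.85, and Dmd had -2.53, -0.06 and -1.54.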
